A study of Mus musculus with 12 samples.

Results

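The immediate early genes described here were 10 genes chosen by name: Fos, Fosb, Junb, Jund, Egr1, Ier2, Dusp1, Dusp6, Btg2 and Zfp36. All 10 were found by their Ensembl identifiers among the 13178 genes of the AAV table and the 21650 genes of the ribose table. The RNA came from sciatic dorsal root ganglion neurons (the L4-6 ganglia, which hold the cell bodies of sensory neurons) of C57BL/6J mice aged 8 weeks, and every group, controls included, had a spinal cord injury 72 h before collection. Mice of the AAV experiment had received, through the sciatic nerve and for 4 weeks, an adeno-associated virus that carried transketolase (AAV-TKT) or green fluorescent protein (AAV-GFP). In the ribose experiment, the mice received 10% ribose (Ribose) or vehicle (Vehicle). Each of the 4 groups held 3 libraries. The labels name neither the promoter and serotype of the virus nor the route of the ribose nor the sex of the mice. No uninjured group was analysed here, so the levels below are those of injured animals throughout.

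Immediate early genes are switched on within minutes of a stimulus without new protein synthesis, usually through the Ras-ERK kinases, calcium signals and the factors SRF, Elk and CREB that already sit on their promoters. Fos, Fosb, Junb and Jund encode subunits of AP-1, a transcription factor built from pairs of Fos and Jun proteins. Egr1 encodes a zinc finger factor, Ier2 a nuclear regulator of growth responses, and Dusp1 and Dusp6 phosphatases that switch MAP kinases off again, Dusp6 acting mainly on ERK. Btg2 and Zfp36 encode proteins that shorten the life of messenger RNAs by recruiting the CCR4-NOT deadenylase. In sensory neurons these genes respond to activity and to axon injury, and in most tissues they also respond to handling during dissection.

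The deposited values were FPKM, which corrects fragments for transcript length and library size, so levels of different genes can be compared within a table. The files hold no read counts, and the lowest values shared no common step, so the depth is unknown. Libraries of the AAV experiment correlated with each other at a Pearson r of 0.972 to 0.985 on the log2(FPKM + 1) scale, and those of the ribose experiment at 0.924 to 0.966. Tkt itself was at 223 to 262 FPKM in AAV-TKT and 98.1 to 106 FPKM in AAV-GFP. All 14 neuron markers examined had a mean of at least 1 FPKM in both tables (medians 476 and 338 FPKM), but so had 10 of 10 satellite glia and 9 of 10 Schwann cell markers. In such mixed RNA, fewer cells of a type and less RNA per cell cannot be told apart.

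Stretches before the start sites are shown for 4 members: Fos and Fosb, which varied widely between libraries, Dusp6, whose groups did not overlap in either experiment, and Dusp1, which holds a complete cyclic AMP response element (CRE, the site of CREB). RefSeq promoter windows were found for 8 of the 10 members, and Egr1 and Ier2 are named only. Each line gives, on the strand of the gene in GRCm38.p6, the last 150 bases before the RefSeq start that lie outside every GENCODE M21 exon of the gene. Capitals mark matches to the CRE, its core, the TATA box and the Egr site described below.
Fos, chr12:85473740-85473889, plus strand: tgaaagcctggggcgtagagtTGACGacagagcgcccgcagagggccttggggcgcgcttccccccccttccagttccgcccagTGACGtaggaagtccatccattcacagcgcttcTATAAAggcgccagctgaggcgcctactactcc
Fosb, chr7:19310052-19310201, minus strand: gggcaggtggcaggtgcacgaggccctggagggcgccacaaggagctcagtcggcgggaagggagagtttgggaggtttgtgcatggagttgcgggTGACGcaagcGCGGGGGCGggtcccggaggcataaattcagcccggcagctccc
Dusp1, chr17:26508520-26508669, minus strand: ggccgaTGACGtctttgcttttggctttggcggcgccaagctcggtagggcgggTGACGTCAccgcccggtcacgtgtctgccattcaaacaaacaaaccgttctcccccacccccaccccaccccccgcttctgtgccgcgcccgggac
Dusp6, chr10:99263081-99263230, plus strand: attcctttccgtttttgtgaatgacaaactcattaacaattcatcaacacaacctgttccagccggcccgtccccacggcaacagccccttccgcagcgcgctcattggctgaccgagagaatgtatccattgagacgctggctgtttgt

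Motifs were searched on both strands of the 250 bases before each RefSeq start. For Jund that window ended at position 70697738 of chromosome 8, away from the GENCODE start of the gene at 70698949. It held no match, which says nothing of the bases next to that GENCODE start. The complete CRE, TGACGTCA, was found in 2 of the 8 member windows, those of Dusp1 and Btg2, and in 1.55% of 32851 windows of all genes. Its core, TGACG, which every CRE contains, were found in 5 of 8 (Fos, Fosb, Junb, Dusp1 and Btg2) and in 17.8% of all windows. The TATA box TATAAA was in the Fos window among the 8, against 12.4% of all. The site of the Egr factors, GCGGGGGCG or GCGTGGGCG, was in the Fosb and Zfp36 windows and in 3.06% of all, and the CArG box, to which SRF binds, was in the Zfp36 window and in 1.47% of all. The AP-1 site TGAGTCA was in none of the 8, against 4.46% of all. The GC box GGGCGG was in 5 of 8 (32.7% of all) and the CCAAT box CCAAT in 3 of 8 (33.8% of all), the CCAAT box being the one searched motif in the window of Dusp6. These are matches of letters in a short window and do not show binding.

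Jund had the highest mean level in each, at 93.1 ± 8.66 FPKM in AAV-TKT and 85.05 ± 5.85 FPKM in AAV-GFP, and at 97.0 ± 3.90 FPKM in Ribose and 98.9 ± 13.0 FPKM in Vehicle (SD, n = 3 each). Fos came next, at 66.8 ± 28.7 FPKM in AAV-TKT and 79.4 ± 9.96 FPKM in AAV-GFP, and at 55.1 ± 25.9 FPKM in Ribose and 63.6 ± 23.1 FPKM in Vehicle. Junb, Egr1 and Dusp1 followed, with group means between 19.8 and 34.9 FPKM. Zfp36 had means of 10.4 to 16.4 FPKM, and Btg2, Ier2, Fosb and Dusp6 had means between 5.82 and 11.2 FPKM, below Zfp36 in every group except Ribose, where Btg2 was above it. Most neighbours in this order overlapped. The libraries of Jund and Fos overlapped in AAV-TKT and AAV-GFP but not in Ribose or Vehicle, and Fos did not overlap with the gene next below it in any group except Ribose.

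**Figure D1:**
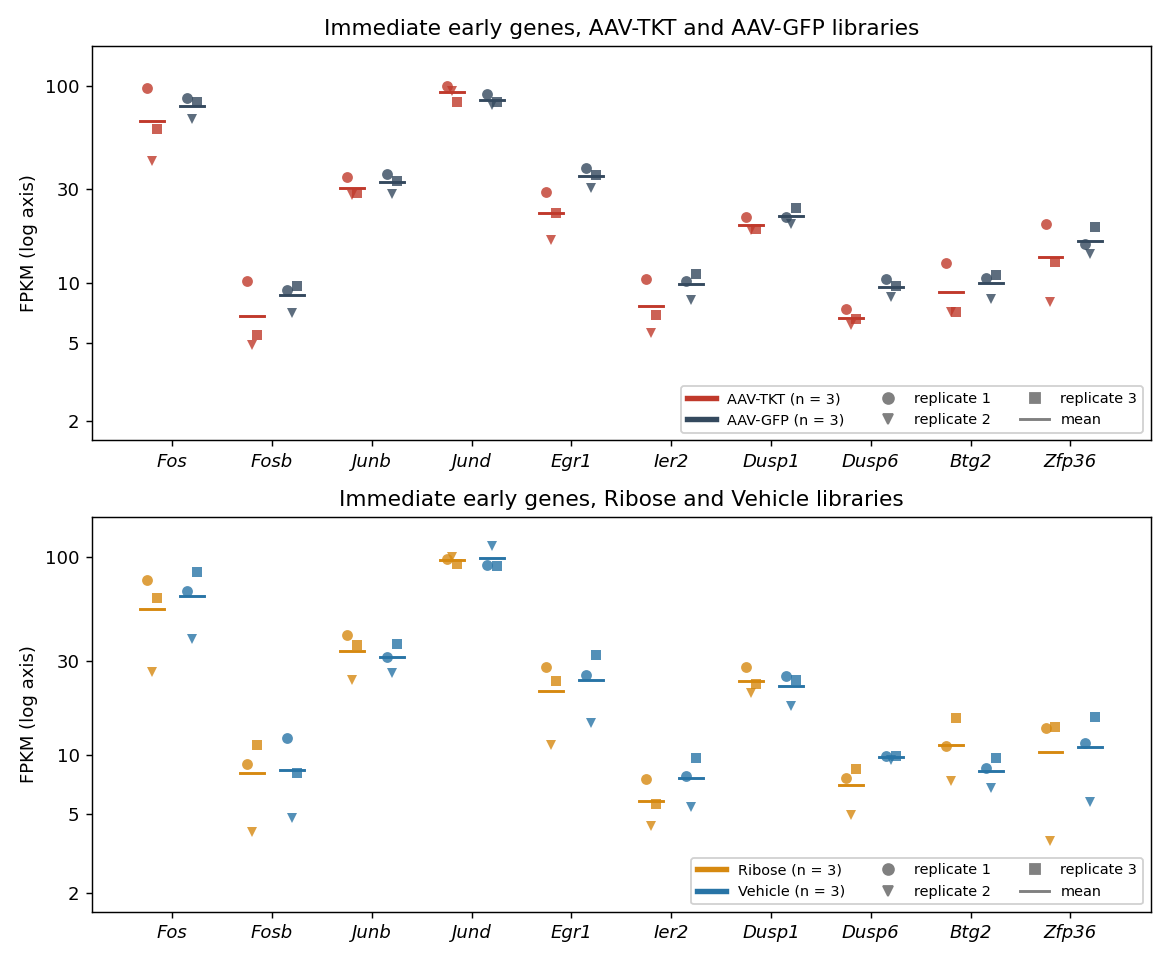
FPKM (log axis) of the 10 immediate early genes in every library, with AAV-TKT and AAV-GFP above and Ribose and Vehicle below; symbols give the replicate number and bars the mean of 3 libraries. Jund was near 100 FPKM with a narrow spread, whereas Fos ranged from 41.8 to 98.1 FPKM within AAV-TKT alone, and the Egr1 and Dusp6 libraries of AAV-TKT all lay below those of AAV-GFP.

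The AAV comparison asked how raised transketolase bears on the transcripts of the injured ganglia. For the immediate early genes the answer was mostly a spread wider than the difference: 0 of 10 passed the threshold (limma on log2(FPKM + 1), Benjamini-Hochberg adjusted p under 0.05 over all 13178 genes), where 0.0152% of all genes did. Egr1 and Dusp6 were the members with an unadjusted p under 0.05, both lower in AAV-TKT, where 4.36% of all genes were lower and 6.23% higher at that level. They were also the 2 members whose libraries did not overlap between the groups, again lower in AAV-TKT, as were 7.2% of all genes, while 11.3% of all genes and 0 of the members were higher without overlap. The log2 change was below 0 for 9 of 10 members, with a median of -0.32, whereas it was below 0 for 46.3% of all genes tested, with a median of 0.014. Leaving out AAV-TKT replicate 2 moved the median of the members to -0.08, and leaving out AAV-TKT replicate 1 moved it to -0.55. A median this low was not particular to the members. With all libraries it was -0.33 for satellite glia markers, -0.35 for mitochondrially encoded genes and -0.47 for fibroblast markers. For neuron and endothelial markers it was above 0, at 0.17 and 0.04.

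Among the AP-1 genes, Fos had 98.1, 41.8 and 60.5 FPKM in AAV-TKT replicates 1, 2 and 3, against 87.3, 68.2 and 82.7 FPKM in AAV-GFP. The highest and the lowest Fos values of the experiment were thus both AAV-TKT libraries, and the log2 change of -0.32 (95% interval -0.97 to 0.32, adjusted p = 0.668) was within that spread. Fosb, the closest relative of Fos here, had 10.3, 4.86 and 5.47 FPKM in AAV-TKT, against 9.28, 7.09 and 9.76 FPKM in AAV-GFP, so that AAV-TKT replicate 1 again lay above every control and the other two below (log2 change -0.35, interval -0.93 to 0.22). Junb had 34.6, 28.1 and 28.7 FPKM in AAV-TKT, against 35.8, 28.5 and 33.2 FPKM in AAV-GFP, a log2 change of -0.09 (interval -0.35 to 0.17). Jund, the AP-1 gene known for its steady expression, had 100.6, 95.1 and 83.6 FPKM in AAV-TKT, against 91.7, 80.6 and 82.9 FPKM in AAV-GFP. It was the member with a log2 change above 0, at 0.13 (interval -0.08 to 0.34). In the GENCODE M21 annotation the antisense gene Gm11175 shares 877 of the 1668 exonic bases of Jund, and Prdx2, on the other strand, shares 173 exonic bases with Junb. The library kit keeps strand, but no source used here says whether the counting used it, so reads of these partners cannot be told apart. Gm11175 was at 5.17 to 7.77 FPKM in AAV-TKT and 3.38 to 6.51 FPKM in AAV-GFP, far below Jund, whereas Prdx2, at 169 to 189 FPKM in AAV-TKT and 151 to 181 FPKM in AAV-GFP, was above Junb.

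Egr1 (ENSMUSG00000038418, chromosome 18, 34859823 to 34864984 on the plus strand of GRCm38) had the largest difference of the 10 in the AAV experiment. It had 28.9, 16.5 and 22.9 FPKM in AAV-TKT, against 38.5, 30.5 and 35.6 FPKM in AAV-GFP. Every AAV-TKT library was below every AAV-GFP library, with a ratio of the means of 0.653 and a log2 change of -0.62 (SE 0.188, interval -1.06 to -0.18). It did not pass over all genes (unadjusted p = 0.0121, limma adjusted p = 0.383), and an exact two-sided permutation test gave 0.1, a floor set by having 3 libraries in each group. Ier2 had 10.6, 5.60 and 6.90 FPKM in AAV-TKT, against 10.3, 8.21 and 11.2 FPKM in AAV-GFP, with overlapping groups and a log2 change of -0.36 (interval -0.84 to 0.13).

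Of the phosphatases, Dusp6 (ENSMUSG00000019960, chromosome 10, 99263231 to 99267489 on the plus strand of GRCm38) had 7.41, 6.13 and 6.58 FPKM in AAV-TKT, against 10.5, 8.56 and 9.69 FPKM in AAV-GFP. The groups did not overlap, the ratio of the means was 0.700 and the log2 change was -0.46 (SE 0.103, interval -0.70 to -0.22). Its unadjusted p of 0.00270 was the smallest of the members, its limma adjusted p = 0.347, and its exact permutation p again 0.1. Its spread within groups was ordinary (SD 0.128 on the log2 scale, larger than that of 49.9% of genes), whereas that of Egr1 was wide (0.298, 90.5%). Dusp1 had 21.8, 18.7 and 18.8 FPKM in AAV-TKT, against 21.8, 20.02 and 24.0 FPKM in AAV-GFP, which overlapped (log2 change -0.14, interval -0.36 to 0.08). Whether the log2 changes of Dusp6 and Dusp1 differ was not tested.

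The genes of mRNA decay followed the pattern of Fos. Zfp36, whose protein (tristetraprolin) binds AU-rich messenger RNAs such as those of cytokines, had 19.97, 8.05 and 12.9 FPKM in AAV-TKT, against 15.8, 14.1 and 19.2 FPKM in AAV-GFP (log2 change -0.32, interval -0.98 to 0.34). Btg2, an antiproliferative gene, had 12.7, 7.19 and 7.14 FPKM in AAV-TKT, against 10.6, 8.29 and 11.1 FPKM in AAV-GFP (log2 change -0.17, interval -0.67 to 0.33). In both, AAV-TKT replicate 1 was the highest library of the experiment and a different AAV-TKT library the lowest.

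**Figure D2:**
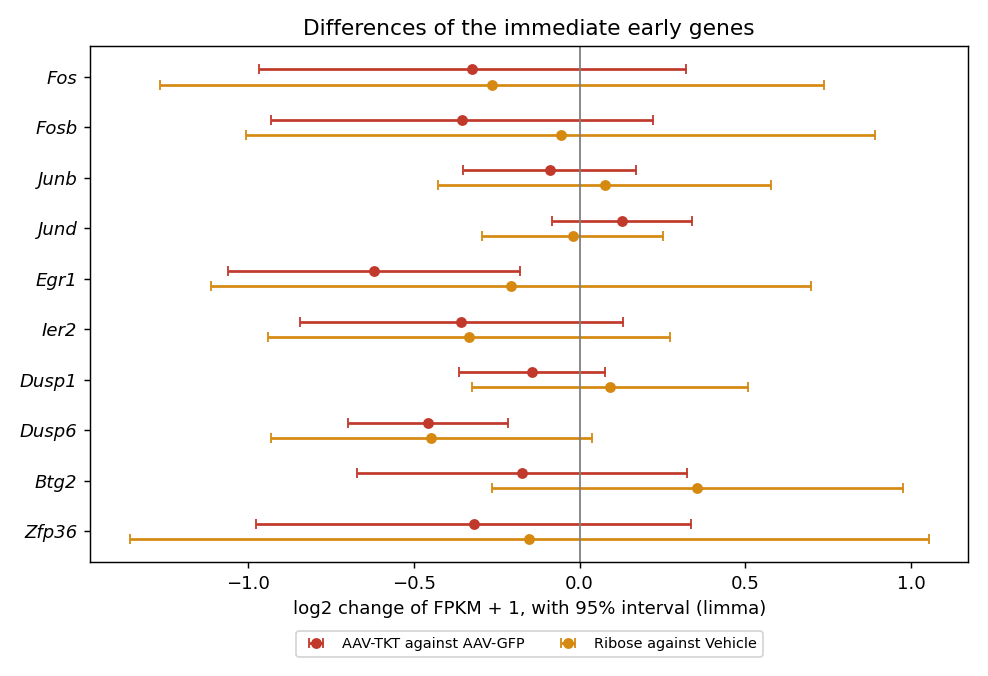
Log2 change of FPKM + 1 (horizontal axis) of each member for AAV-TKT against AAV-GFP and for Ribose against Vehicle, as points with 95% intervals from limma, 3 libraries per group. In the AAV experiment the intervals of Egr1 (-1.06 to -0.18) and Dusp6 (-0.70 to -0.22) lay below 0 without adjustment, and every interval of the ribose experiment held 0.

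In the ribose experiment, too, 0 of 10 members passed (limma, adjusted p under 0.05 over 13804 genes), where 0.00724% of all genes did, and none had an unadjusted p under 0.05 (1.99% of all genes were lower and 2.8% higher at that level). Dusp6 was the member whose libraries did not overlap, lower in Ribose as for 5.35% of all genes. No member was higher without overlap, as 4.28% of all genes were, and 7 of 10 log2 changes were below 0, against 55.2% of all genes. The median over the members was -0.10, against -0.023 for all genes tested. It moved with nearly every library left out, to 0.19 without Ribose replicate 2 and to -0.41 without Vehicle replicate 2, so its direction rested on single libraries.

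Dusp6 had 7.58, 4.94 and 8.47 FPKM in Ribose, against 9.81, 9.45 and 9.84 FPKM in Vehicle. The Vehicle values were close together, and all 3 Ribose values lay below them, with a ratio of the means of 0.722. The log2 change was -0.45 (SE 0.207, interval -0.93 to 0.04, unadjusted p = 0.0654, limma adjusted p = 1.000, exact permutation p = 0.1). Without Ribose replicate 2 it was -0.25, and without Ribose replicate 3 it was -0.58. Dusp6 was the member lower without overlap in both experiments, a pattern shared by 45 of the 12853 genes tested in both (0.35%). Taken singly, 7.2% of all genes were lower without overlap in the AAV experiment and 5.35% in the ribose experiment. Whether the joint pattern exceeds coincidence was not tested.

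The other members overlapped between Ribose and Vehicle. Fos had 76.8, 26.4 and 62.0 FPKM in Ribose, against 67.7, 38.7 and 84.3 FPKM in Vehicle, with replicate 2 lowest in both groups (log2 change -0.26, interval -1.27 to 0.74). Egr1 had 28.0, 11.2 and 23.6 FPKM in Ribose, against 25.3, 14.4 and 32.0 FPKM in Vehicle, and showed the same order of replicate 2 (log2 change -0.21, interval -1.11 to 0.70). Fosb (8.95, 4.06 and 11.2 FPKM in Ribose, against 12.2, 4.80 and 8.04 FPKM in Vehicle) and Zfp36 (13.7, 3.65 and 13.8 FPKM in Ribose, against 11.5, 5.73 and 15.5 FPKM in Vehicle) each varied by over 2-fold within both groups. Ier2 had 7.49, 4.34 and 5.63 FPKM in Ribose, against 7.77, 5.46 and 9.62 FPKM in Vehicle (log2 change -0.33, interval -0.94 to 0.27).

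Btg2 had the largest difference above 0, with 11.0, 7.38 and 15.4 FPKM in Ribose, against 8.54, 6.76 and 9.62 FPKM in Vehicle (log2 change 0.36, interval -0.27 to 0.98). Junb had 40.3, 24.0 and 35.9 FPKM in Ribose, against 31.2, 26.1 and 36.5 FPKM in Vehicle, and Dusp1 had 27.7, 20.5 and 22.8 FPKM in Ribose, against 24.99, 17.7 and 23.9 FPKM in Vehicle. Their log2 changes of 0.08 and 0.09 were far inside the spread. Jund had 98.2, 100.1 and 92.6 FPKM in Ribose, against 92.0, 114 and 90.9 FPKM in Vehicle, a log2 change of -0.02 (interval -0.30 to 0.25).

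The AAV and ribose effects were also set against each other in a limma fit of all 12 libraries over the 12853 genes tested in both, with tables normalized separately, so only differences within each table entered. The difference of the effects passed for 0 of 10 members, where 0.00778% of all genes passed, and no member had an unadjusted p under 0.05. The AAV effect minus the ribose effect was -0.01 for Dusp6 (interval -0.52 to 0.50) and -0.41 for Egr1 (interval -1.45 to 0.63). It was -0.53 for Btg2 (interval -1.33 to 0.27), the largest in size. These intervals are wide, so a difference between the experiments as large as the effects themselves was not detectable.

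Values also varied with the library. In AAV-GFP, replicate 2 was the lowest of the group for 10 of 10 members, where it was the lowest for 33.6% of all genes. Replicate 2 was also the lowest for 8 of 10 members in AAV-TKT (32.5% of all genes), for 9 of 10 in Ribose (34.3%) and for 9 of 10 in Vehicle (35.2%). Fos, Fosb, Junb, Egr1, Ier2, Dusp1, Dusp6 and Zfp36 had their lowest value in replicate 2 of all 4 groups, a pattern that 4.86% of the genes tested in both tables showed. Btg2 showed it in 3 groups, and Jund in AAV-GFP alone. Members differ in level but respond to shared signals, so they are not independent measurements of a library.

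**Figure D3:**
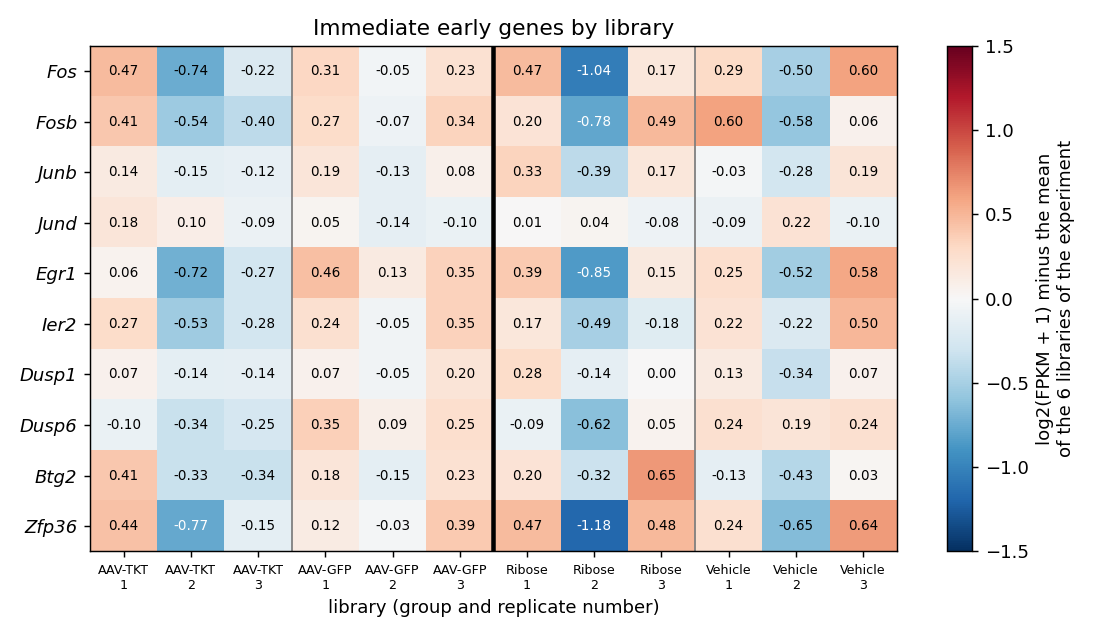
Log2(FPKM + 1) of each member (rows) in each of the 12 libraries (columns), minus the mean of the 6 libraries of its experiment; red is above and blue below that mean. Ribose replicate 2 and AAV-TKT replicate 2 are blue for nearly every member, and Jund stays pale throughout.

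The spread was largest for Zfp36 and Fos. Within groups, the SD of log2(FPKM + 1) was 0.455 for Zfp36 and 0.450 for Fos in the AAV experiment, larger than in 96.3% and 96.2% of genes, and 0.823 and 0.692 in the ribose experiment (95.5% and 92.5%). The highest Ribose library of Zfp36 had 3.76 times the FPKM of the lowest, and the highest Vehicle library 2.70 times. Jund stood at the other end, with an SD of 0.118 in the AAV experiment (43.8% of genes) and 0.135 in the ribose experiment (17.1%), beside Dusp1 with 0.122 and 0.235.

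Some other transcripts moved with these libraries. The mean over the 10 members, as log2(FPKM + 1) minus the mean of the experiment, was 0.23, -0.42 and -0.22 in AAV-TKT replicates 1, 2 and 3 and 0.22, -0.05 and 0.23 in AAV-GFP. It was 0.24, -0.58 and 0.19 in Ribose and 0.17, -0.31 and 0.28 in Vehicle. The same mean over the 10 satellite glia markers (such as Fabp7 and Kcnj10, genes of the glia that wrap each ganglion neuron) was 0.14, -0.44 and -0.0039 in AAV-TKT and 0.22, -0.0018 and 0.084 in AAV-GFP. In Ribose it was 0.19, -0.91 and 0.07, and in Vehicle 0.30, -0.19 and 0.54. Replicate 2 was thus the lowest of every group in the glial list as well. It was also the lowest of every group in the mean over the 9 Schwann cell markers, at -0.37 in AAV-TKT, 0.06 in AAV-GFP, -0.67 in Ribose and -0.14 in Vehicle. The summed FPKM of the Schwann cell markers was instead highest in replicate 2 of AAV-GFP (390 FPKM) and of Vehicle (495 FPKM). In AAV-TKT that sum lay between the other libraries in replicate 2 (321 FPKM), and in Ribose it was lowest there (393 FPKM). The summed level of the satellite glia markers ranged over 1075 to 1599 FPKM in AAV-TKT and 1434 to 1700.0 FPKM in AAV-GFP, and over 718 to 1378 FPKM in Ribose and 1132 to 1976 FPKM in Vehicle. None of these markers was listed at 0 in every library. Other lists had replicate 2 lowest in some groups only. The mean over 7 fibroblast markers was highest in replicate 2 of AAV-GFP (0.74). It was lowest in replicate 2 of AAV-TKT (-0.46), Ribose (-1.09) and Vehicle (-0.28). The mean over the macrophage markers was highest in replicate 2 of AAV-TKT (-0.22) and Vehicle (0.41) and lowest in that of Ribose (-0.95).

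Mitochondrially encoded genes, a sign of RNA quality and of cell makeup, showed the same libraries low. Their mean over 13 genes was -0.93 in AAV-TKT replicate 2 and -1.21 in Ribose replicate 2, against 0.16 to 0.29 and 0.17 to 0.38 in the other two libraries of each group. In the control groups, AAV-GFP replicate 2 was at -0.13 and Vehicle replicate 2 at -0.28, also the lowest of their groups. The 14 neuron markers lay between 0.02 and 0.14 in AAV-TKT and -0.15 and 0.0029 in AAV-GFP, and between -0.05 and 0.03 in Ribose and -0.03 and 0.10 in Vehicle. For these markers replicate 2 was the highest of its group in AAV-TKT, AAV-GFP and Ribose, and the lowest in Vehicle. The 18 heat shock and stress genes, which tissue handling can raise, were lowest in replicate 2 of each group, but over a narrow range of -0.16 to 0.19, and their summed FPKM was highest there. The part of these transcripts in the differences of the immediate early genes was not tested.

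**Figure D4:**
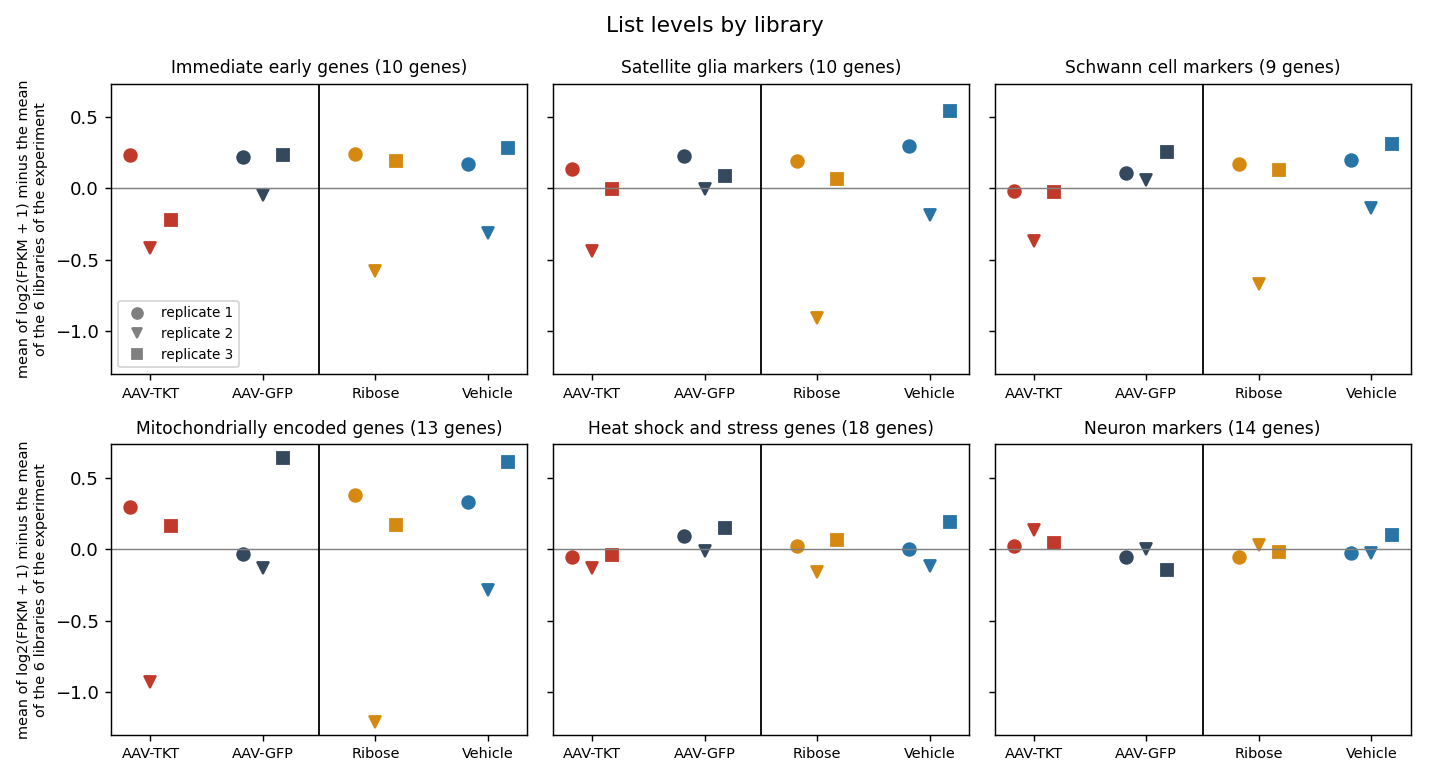
Mean of log2(FPKM + 1) minus the mean of the experiment (vertical axis) for 6 gene lists in each library; triangles are replicate 2. The immediate early, satellite glia, Schwann cell, mitochondrially encoded and stress lists were lowest in replicate 2 of all 4 groups. The neuron markers, which were not, stayed between -0.15 and 0.14.

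Several marker lists separated the AAV groups. The summed level of 11 neutrophil markers was 20.2 to 32.8 FPKM in AAV-TKT and 98.3 to 266 FPKM in AAV-GFP, so that it separated the groups of the AAV experiment, where most members overlapped. All 11 log2 changes were below 0 (median -2.12), none of the markers was at 0 in every library, and their adjusted p did not pass for any of them. The summed level of 7 macrophage markers was 13.4 to 19.8 FPKM in AAV-TKT and 38.0 to 51.2 FPKM in AAV-GFP, that of 7 erythrocyte markers 77.3 to 99.1 FPKM in AAV-TKT and 119 to 482 FPKM in AAV-GFP, and that of 9 Schwann cell markers 307 to 337 FPKM in AAV-TKT and 357 to 390 FPKM in AAV-GFP, each without overlap. The summed level of the mural cell markers, 3 of which were tested, was 26.2 to 33.3 FPKM in AAV-TKT and 38.6 to 54.8 FPKM in AAV-GFP. Only 7 of 12 macrophage, 7 of 9 erythrocyte and 3 of 10 mural cell markers reached a mean of 1 FPKM and entered these sums. The median of the macrophage markers was 1.62 FPKM, and a marker so low can reach 1 FPKM through the group where it is higher. These sums are therefore a description. The 14 neuron markers separated the groups the other way, at 9498 to 10485 FPKM in AAV-TKT and 7961 to 8948 FPKM in AAV-GFP, with 11 of 14 log2 changes above 0, 6 of 14 higher without overlap and 0 of 14 passing. The part of these cells in the Egr1 and Dusp6 differences was not tested. In the ribose experiment the neutrophil sum was 13.7 to 121 FPKM in Ribose and 29.6 to 172 FPKM in Vehicle, lowest in Ribose replicate 2 and highest in Vehicle replicate 2.

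When both replicate 2 libraries of an experiment were left out, a choice made after the values were seen, 0 of 10 members passed in either experiment. The log2 change of Egr1 was then -0.51 and that of Dusp6 -0.47 in AAV-TKT, close to the values with all libraries, and the median over the members was -0.17. In Ribose, Dusp6 was at -0.26 and the median was 0.025. Every AAV-TKT library of Egr1 and Dusp6 lay below every AAV-GFP library, so leaving libraries out could not turn the sign of these differences.

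Other genes of the early response were read from lists chosen by role. In the AAV experiment, 0 of 7 other AP-1 and small Maf genes tested (of 10 listed), 0 of 14 other early transcription factors (of 17), 0 of 19 other early effectors (of 21) and 0 of 16 MAP kinase feedback genes (of 18) passed in either direction. Their log2 changes were below 0 for 5 of 7, 14 of 14, 15 of 19 and 11 of 16, with medians of -0.21, -0.18, -0.21 and -0.11, against 0.014 for all genes. Lower without overlap were 1, 3, 5 and 5 of them, and higher without overlap 0, 0, 1 and 1, where 7.2% of all genes were lower and 11.3% higher without overlap. The 14 early factors, and the 3 of them lower without overlap, include Klf2, which reached a mean of 1 FPKM only through AAV-GFP. The counts of that list are therefore a description. The upstream kinases showed no such lean: 10 of 24 were below 0, with a median of 0.06 and 0 passing. Of the factors that bind early promoters, 13 of 17 were below 0 (median -0.10), and of the Egr1 partners and CCR4-NOT genes 10 of 11 (median -0.07), again with 0 passing in either list.

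Named by the smallest unadjusted p of each list, the AAV-TKT differences included several neighbours of the members in the pathway. Nab2, the corepressor that Egr proteins induce and bind, was at 1.30 ± 0.109 FPKM in AAV-TKT and 2.04 ± 0.124 FPKM in AAV-GFP (SD, n = 3 each), without overlap (log2 change -0.40, adjusted p = 0.378). Egr3, a relative of Egr1, was at 1.59 ± 0.763 and 3.58 ± 1.28 FPKM in AAV-TKT and AAV-GFP, with overlap (-0.82). The ERK feedback inhibitors Spry4 and Spry2 were at 10.4 ± 0.611 and 13.5 ± 0.484 FPKM in AAV-TKT and at 13.2 ± 0.730 and 16.3 ± 0.761 FPKM in AAV-GFP, both without overlap (-0.31 and -0.25), and the ERK-responsive factor Etv5 was at 45.3 ± 0.517 and 51.6 ± 3.91 FPKM in AAV-TKT and AAV-GFP (-0.18). These were the 3 feedback genes with the smallest p, and they were chosen by that p.

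Plk2, a kinase induced by activity, had the smallest unadjusted p of all these lists (0.000419). It was at 8.75 ± 0.278 FPKM in AAV-TKT and 12.2 ± 0.476 FPKM in AAV-GFP (log2 change -0.43, limma adjusted p = 0.234). Zfp36l2, a relative of Zfp36, was at 3.88 ± 0.684 FPKM in AAV-TKT and 6.09 ± 0.913 FPKM in AAV-GFP (-0.54), and the matricellular gene Ccn1 at 11.0 ± 4.25 FPKM in AAV-TKT and 19.3 ± 3.64 FPKM in AAV-GFP (-0.80). Klf2 and Klf4, Krüppel-like factors of endothelial and other cells, were at 0.900 ± 0.250 and 1.03 ± 0.312 FPKM in AAV-TKT and at 1.74 ± 0.149 and 1.88 ± 0.276 FPKM in AAV-GFP (-0.53 and -0.51). Every gene of the AAV table had a mean of at least 1 FPKM, which Klf2 reached only through AAV-GFP, so its difference is given as a description. Atf3, an AP-1 partner and injury gene, was at 10.1 ± 2.10 FPKM in AAV-TKT and 15.3 ± 3.16 FPKM in AAV-GFP, with overlap (-0.55), and the small Maf gene Mafk at 3.35 ± 0.573 and 4.65 ± 0.567 FPKM in AAV-TKT and AAV-GFP (-0.38). Map2k1, the kinase directly above ERK, was higher without overlap, at 73.3 ± 6.77 FPKM in AAV-TKT and 65.7 ± 2.78 FPKM in AAV-GFP (0.15). The other kinases named, Rps6ka1 (-0.21) and Mknk1 (0.14), overlapped. Of the factors on early promoters, the CREB coactivator Crtc3 (-0.28) and the CREB relative Crem (-0.24) were lower and the coactivator Crtc1 (0.16) higher, each without overlap. The AP-1 gene Fosl2 (-0.28) and the deadenylase gene Cnot6l (-0.51) overlapped, and Cnot6, which encodes another deadenylase (-0.24), was lower without overlap.

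**Figure D5:**
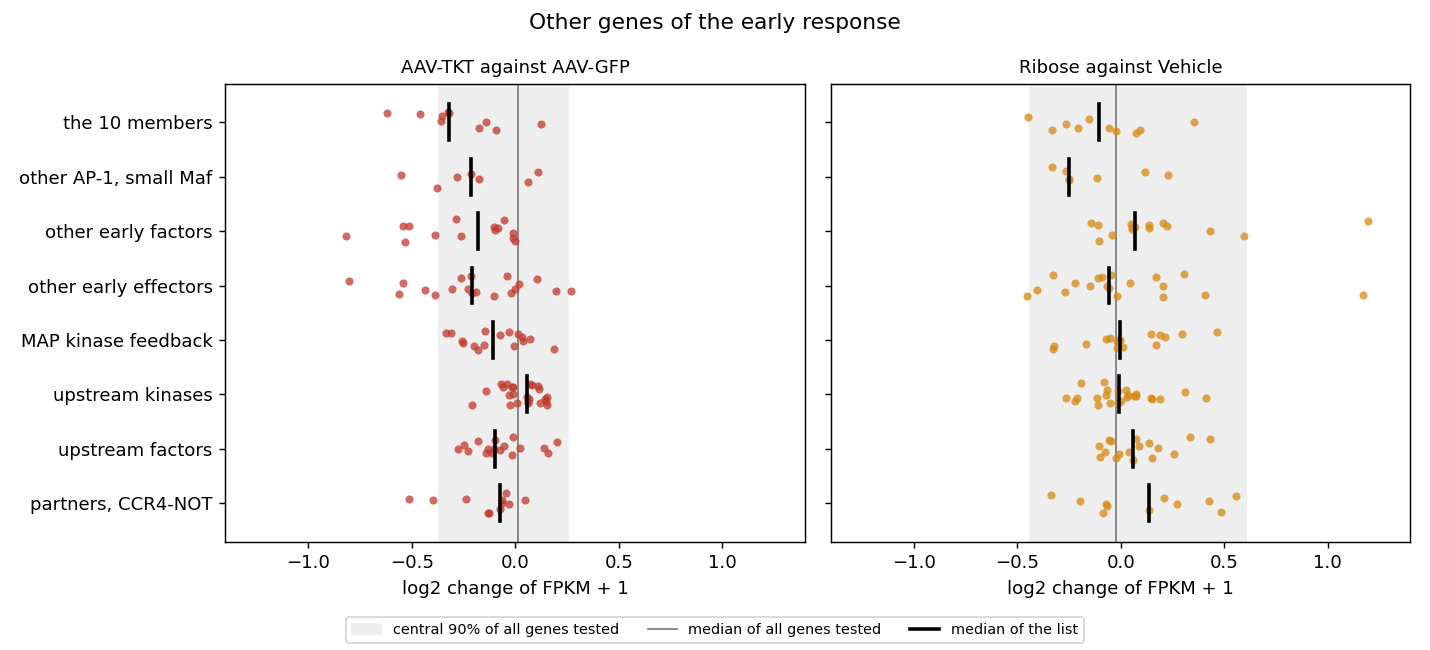
Log2 change of FPKM + 1 (horizontal axis) of every gene tested in each list (vertical axis), for AAV-TKT against AAV-GFP and for Ribose against Vehicle; black bars are list medians, the grey line the median and the shaded band the central 90% of all genes tested. The 14 other early factors tested were all below 0 in the AAV experiment, where 46.3% of all genes were. In the ribose experiment 4 of 15 were, and 55.2% of all genes. Whether the experiments differ in this was not tested. Klf2 reached the filter only through AAV-GFP and Egr4 only through Ribose.

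In the ribose experiment the log2 change was below 0 for 5 of 7 other AP-1 and small Maf genes (median -0.25), for 4 of 15 other early factors (0.07), for 12 of 19 effectors (-0.06) and for 9 of 16 feedback genes (-0.0050), against a median of -0.023 for all genes, and 0 of each list passed. Egr4, an Egr factor of neurons, was at 1.69 to 2.73 FPKM in Ribose and 0.217 to 0.557 FPKM in Vehicle (log2 change 1.20, limma adjusted p = 0.766). It reached the mean of 1 FPKM needed for testing only through Ribose, so these values are a description, and the 15 early factors include it. Egr3 was at 5.34 ± 2.22 FPKM in Ribose and 3.17 ± 1.29 FPKM in Vehicle, and Nr4a2, an activity-induced nuclear receptor, at 2.73 ± 1.31 FPKM in Ribose and 1.67 ± 0.327 FPKM in Vehicle, both with overlap. Bdnf, the neurotrophin gene, was at 14.2 ± 2.03 FPKM in Ribose and 20.1 ± 4.63 FPKM in Vehicle (-0.45), and Btg1, the close relative of Btg2, at 17.03 ± 2.48 FPKM in Ribose and 13.5 ± 1.07 FPKM in Vehicle (0.30), the last without overlap. Ccn2, a matricellular gene, spanned 0.545 to 9.67 FPKM in Ribose and 1.10 to 1.49 FPKM in Vehicle (1.17).

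Of the feedback genes, the phosphatase gene Dusp8 was higher without overlap, at 18.8 ± 2.15 FPKM in Ribose and 15.1 ± 1.04 FPKM in Vehicle (0.30), and Spry2 (-0.32) and Etv5 (-0.33) overlapped. The JNK gene Mapk8 was higher without overlap, at 37.2 ± 6.22 FPKM in Ribose and 27.5 ± 1.28 FPKM in Vehicle (0.41), whereas the JNK gene Mapk10 (-0.22) and Mknk1 (0.31) overlapped. The upstream kinases had 13 of 24 log2 changes below 0 (median -0.0066), the factors on early promoters 7 of 17 (0.06) and the Egr1 partners and CCR4-NOT genes 5 of 11 (0.13), with 0 passing in each. The genes named from the remaining lists all overlapped: Mafk (-0.33), Mafg (-0.25) and Jdp2 (0.23) among AP-1 and small Maf genes, Crem (0.43), Creb1 (0.26) and Ep300 (0.33) among the factors, and Cnot1 (0.43), Cnot6 (0.48) and Cnot7 (0.27) of CCR4-NOT.

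Which genes most resembled the members was measured as the root-mean-square difference of log2(FPKM + 1), centred within each experiment, over all 12 libraries and 12844 genes (the 12853 tested in both tables less 9 rows that repeat a gene symbol). Fos and Zfp36 were close to each other at 0.134: Fos was the second nearest of all genes to Zfp36, and Zfp36 the fifth nearest to Fos. Outside the members, the nearest to Fos were Matn4 (0.084), Serpinh1 (0.109), Ugt1a6a (0.120), Sh3pxd2b (0.128) and Olfml2a (0.137), and the nearest to Zfp36 was Nr4a1 (0.133), an early nuclear receptor gene. Matn4 encodes a matrix protein and Serpinh1 a collagen chaperone. Egr1 lay nearest to Ugt1a6a (0.117), Gas7 (0.139), Socs3 (0.140), Serpinh1 (0.144) and Cebpd (0.146), with Fos seventh among all genes. The nearest to Dusp6 were Iqgap1 (0.109), Tmem72 (0.124), Tgfbr3 (0.131), Abca1 (0.135) and Mbp (0.135), Mbp being a myelin gene, and none of the other members was among its 100 nearest genes. By rank Jund was the least like the rest: its closest member, Dusp1, ranked 7375 among all genes. By the distance itself it was not, with a median to the other members of 0.372, against 0.375 for Zfp36. Such likeness describes these 12 libraries only.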

How the data were processed

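RNA from 12 libraries in 4 groups was analysed. Per the labels' protocols, polyA RNA was isolated with an RNeasy Micro kit and turned into strand-specific libraries. The submitters' processing notes name bcl2fastq 2.20, FastQC, Trim Galore and GRCm38, with aligner, counter and annotation not given in the sources used here. All values are FPKM, computed and deposited by the authors in 1 table per experiment; every gene of the AAV table had a mean of at least 1 FPKM. Identifiers were matched to GENCODE M21 symbols (13170 of 13178 and 21612 of 21650).

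Groups were compared within each table by limma 3.58.1 (R 4.3.3, intensity trend) on log2(FPKM + 1), over genes whose mean reached 1 FPKM, with Benjamini-Hochberg adjustment over all of them and a threshold of 0.05. Fold changes on this scale understate those of low genes. The fits were tested on simulated data. The members and lists were chosen with earlier results of these data known, so no list was tested. Named beside the members were up to 3 genes of each pathway list per experiment with the smallest p, and the 5 nearest genes of members that the text turns on. No lymphocyte marker reached a mean of 1 FPKM. Nothing says that replicates came from separate animals, so the p-values may reflect technical spread alone. Read depth is unknown, and no interval for counting error can be given. The alternatives were each library left out in turn, a replicate block, array weights, quantile normalization, scaling by median of ratios or to equal totals, another filter (none, or 5 FPKM) and another pseudocount (0.1 or 0.5). The control columns of the ribose table, named as controls there, were taken as Vehicle, the one control group of that experiment.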

Additional observations from a re-analysis of the deposited data

How the results depend on the processing

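Members past the threshold numbered 0 in both experiments, and in the test of the difference between them, under every alternative run and every library left out. The smallest adjusted p of any member was 0.0777, for Dusp6 in AAV-TKT with array weights. Over all genes, 2 passed in the AAV experiment, against 23 with array weights, 5 with a pseudocount of 0.1, 4 with a mean of at least 5 FPKM or equal totals, 0 with the replicate block and 3 to 41 with 1 library left out, the last without AAV-GFP replicate 2. In the ribose experiment 1 passed, against 1 to 4 with 1 library left out and 2 with a pseudocount of 0.5 or equal totals. Without both replicate 2 libraries, 42 and 6 passed.

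The median over the members ranged from -0.55 to -0.08 with 1 library left out in the AAV experiment and from -0.41 to 0.19 in the ribose experiment. In the AAV experiment Egr1 and Dusp6 stayed below 0 in all 16 alternatives (-0.80 to -0.42 and -0.53 to -0.40). Their groups did not overlap, so leaving libraries out or changing the pseudocount could not turn their sign. The filters and the replicate block left their log2 changes as they were. Jund turned to -0.0055 with array weights. In the ribose experiment Jund turned to 0.051 with quantile normalization, 0.038 with array weights and 0.061 without both replicate 2 libraries, where Fosb was at 0.012 and Zfp36 at 0.039. With 1 library left out the log2 changes ranged from -0.58 to 0.19 for Fos, -0.36 to 0.32 for Fosb, -0.072 to 0.29 for Junb, -0.078 to 0.084 for Jund, -0.52 to 0.17 for Egr1, -0.055 to 0.18 for Dusp1 and -0.51 to 0.40 for Zfp36. The cause of these turns was not tested.

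The labels link same-numbered libraries by nothing but the number. For replicates 1, 2 and 3, the correlation over genes of their deviations from the group means was 0.033, 0.071 and -0.014 in the AAV experiment. In the ribose experiment it was 0.042, 0.357 and 0.160. Ribose replicate 2 was at -0.181 and -0.239 with Vehicle replicates 1 and 3. Deviations within a group sum to 0 for each gene, so the 0.357 requires a negative value with another Vehicle library. The negative values are therefore no separate contrast. Not every library correlated best with its own number, and what same-numbered libraries shared was not tested. With the replicate block 0 members passed in either experiment, and Dusp6 in Ribose had an adjusted p of 0.684.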
